A study of Mus musculus with 11 samples.

Results

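The 5 EphB receptor genes (Ephb1, Ephb2, Ephb3, Ephb4 and Ephb6) and the 3 ephrin-B ligand genes (Efnb1, Efnb2 and Efnb3) were followed across 3 sensory nuclei of the newborn mouse thalamus. They were chosen by gene family, with earlier results of these data known, and all 8 were found by Ensembl identifier among the 54752 genes of the count files. Neurons came from the dorsolateral geniculate nucleus (dLG, the visual relay; 4 libraries), the ventral posteromedial nucleus (VPM, the somatosensory relay of the face; 4 libraries) and the ventral division of the medial geniculate nucleus (MGv, the auditory relay; 3 libraries), and RNA was sequenced in bulk. All 11 libraries were from Gbx2CreER-IRES-EGFP/+::R26lsl-tdTomato/+ mice of the ICR/CD-1 strain at postnatal day 0, so the nuclei differed in dissection and not in genotype, treatment or age. Cells were dissociated with papain and sorted by fluorescence, and each library pooled 4 brains. The red label depends on a tamoxifen-inducible Cre expressed from the Gbx2 locus, so it marks cells in which Gbx2 was active when Cre was induced. There was no untreated or other control group, and the comparison is of the nuclei with each other.

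Eph receptors are receptor tyrosine kinases, and ephrins are their ligands on the surface of neighbouring cells, so signalling needs cell contact. EphB receptors mainly bind ephrin-B ligands, which span the membrane and signal in return into the cell that carries them: signalling into the receptor-bearing cell is called forward and signalling into the ligand-bearing cell reverse. In the developing brain the family is known for axon guidance, topographic mapping, cell sorting at boundaries and synapse formation.

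Of the 7 members that passed the filter on low counts, 4 differed among the nuclei (adjusted p under 0.1, quasi-likelihood F test in edgeR), beside 24.2% of the 15907 genes tested. These were Efnb1, Efnb2, Efnb3 and Ephb2, and each had its highest mean in MGv and its lowest in VPM. Ephb1, Ephb3 and Ephb6 did not pass (adjusted p = 0.458, 0.338 and 0.438), and Ephb4, close to the limit of detection, was not tested. The sequences just upstream of 3 of the 4 genes are shown first because these genes had the same order of nucleus means. They come from RefSeq (build GRCm38.p6), which held entries for 7 of the 8 members and none for Efnb3. The sequences cover the 250 bases before the annotated start, written 5′ to 3′ on the strand of the gene. Capitals mark matches, on either strand, to the GC box (GGGCGG), the CCAAT box, the TATA box (searched as TATAAA) or a homeodomain core (searched as TAATTA), and no marked match overlaps another. The windows are chr4:136836013-136836262 (minus strand) for Ephb2, chrX:99135811-99136060 (plus strand) for Efnb1 and chr8:8661243-8661492 (minus strand) for Efnb2.
Ephb2: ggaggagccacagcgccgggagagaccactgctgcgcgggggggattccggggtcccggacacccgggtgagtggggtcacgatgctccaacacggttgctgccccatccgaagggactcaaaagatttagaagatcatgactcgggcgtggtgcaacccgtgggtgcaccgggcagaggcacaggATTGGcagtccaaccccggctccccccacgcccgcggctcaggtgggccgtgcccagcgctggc
Efnb1: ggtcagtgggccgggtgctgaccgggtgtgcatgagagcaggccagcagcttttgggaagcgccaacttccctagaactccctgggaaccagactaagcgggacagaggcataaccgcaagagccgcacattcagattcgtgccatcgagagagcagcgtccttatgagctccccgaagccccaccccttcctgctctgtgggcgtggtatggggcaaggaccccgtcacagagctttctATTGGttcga
Efnb2: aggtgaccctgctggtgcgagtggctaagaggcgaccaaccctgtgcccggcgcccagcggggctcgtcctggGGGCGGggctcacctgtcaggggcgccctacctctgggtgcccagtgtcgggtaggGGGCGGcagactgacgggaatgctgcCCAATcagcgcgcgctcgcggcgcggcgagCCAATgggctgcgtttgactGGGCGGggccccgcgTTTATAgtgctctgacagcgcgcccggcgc

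All 3 windows were richer in G and C than the median of 52.4% over 32851 promoter windows of the same length, at 68.4% in Ephb2, 60.0% in Efnb1 and 72.0% in Efnb2. They held 20, 13 and 27 CpG dinucleotides, respectively, where the median window held 6. Each held CCAAT, found in 33.8% of all windows, once in Ephb2 and in Efnb1 and 2 times in Efnb2. GGGCGG, found in 32.7% of windows, occurred 3 times in Efnb2 and TATAAA, found in 12.4%, once, whereas Ephb2 and Efnb1 held neither. TAATTA, found in 4.84% of windows, was in none of the 3. The windows of Ephb6, Ephb1 and Ephb3, which did not differ among the nuclei at this threshold, had 76.8%, 54.0% and 65.6% G and C. They held 27, 10 and 16 CpG dinucleotides, respectively. Ephb6 held 5 GC boxes, Ephb3 2 GC boxes and Ephb1 2 CCAAT matches. These letters describe the windows and are not evidence of binding.

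The libraries held between 10.2 and 23.6 M counts, with the 3 MGv libraries the shallowest (10.2 to 13.2 M). Levels are given in CPM, counts scaled to a common library size, after TMM scaling (trimmed mean of M values). The 9 pan-neuronal markers summed to 7148 to 8255 CPM in dLG, 8007 to 9845 in VPM and 6785 to 7152 in MGv, and the 7 thalamic relay markers to 2967 to 3483, 1951 to 2597 and 2690 to 2893 CPM. Every marker of both lists was detected in all 3 nuclei. The pan-neuronal genes were split between VPM and MGv. Nefl (means of 2141 CPM in VPM and 762 in MGv), Nefm (1215 and 286), Snap25 and Syt1 were higher in VPM. Tubb3 (2753 and 3082), Rbfox3 (142.5 and 249), Map2, Elavl3 and Elavl4 were higher in MGv. The relay sum was lower in every VPM library than in any dLG or MGv library, as were Efnb2 and Efnb3 below, and its part in the results was not tested. The genes of this list did not move together between VPM and MGv. Gbx2, Tcf7l2 (means of 531 CPM in VPM and 1168 in MGv) and Lhx2 (7.515 and 77.1) were higher in MGv. Slc17a6 (541 and 338), Lef1 (310 and 189), Rora (709 and 539) and Lhx9 (238 and 181) were higher in VPM. Gbx2, whose locus drives the label, averaged 29.4 CPM in dLG, 35.3 in VPM and 304 in MGv. In 1 library of each nucleus (replicate 2 of dLG, 3 of VPM and 1 of MGv), Hspa8, a constitutive heat shock protein, stood at 3.05 to 5.56 CPM against 159 to 581 CPM in the other 8 libraries. Results are therefore also given without these 3 low-Hspa8 libraries. In bulk RNA, fewer cells of a type and less RNA per cell cannot be told apart.

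**Figure D1:**
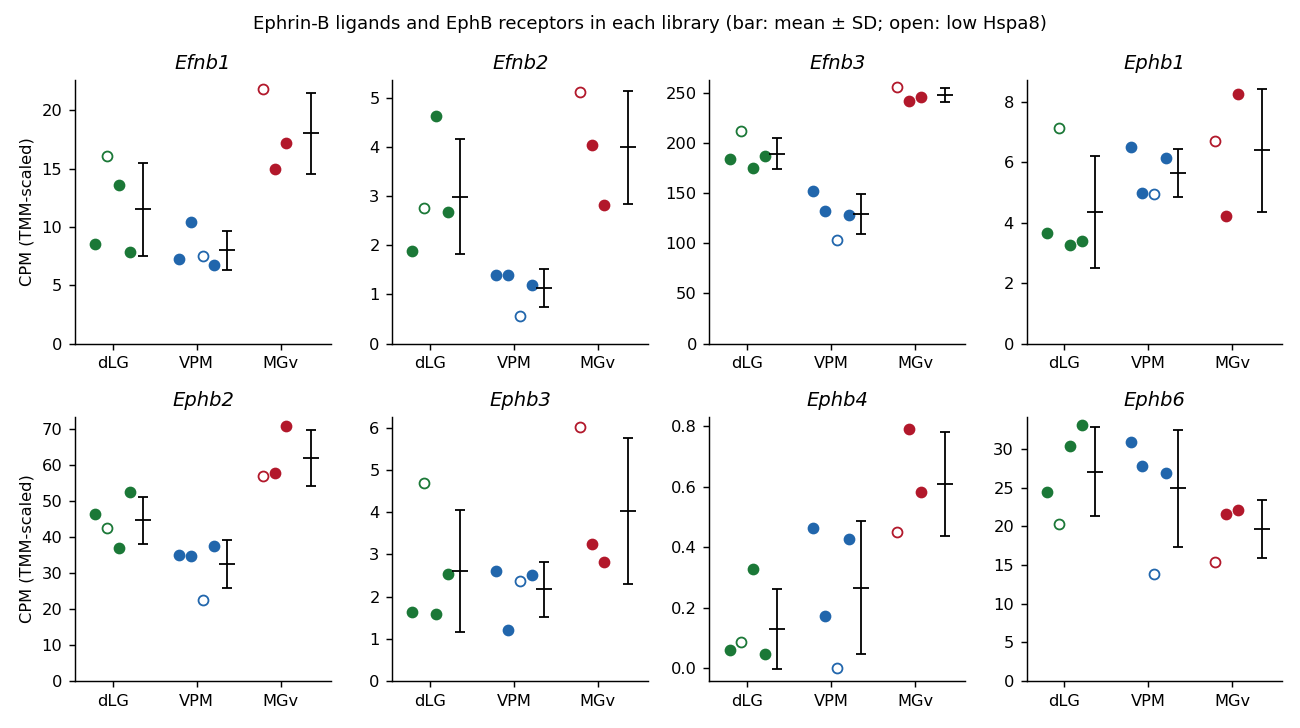
Level of each ephrin-B and EphB gene in each library, in TMM-scaled CPM on linear axes. Points are libraries (green dLG, blue VPM, red MGv), open points are the 3 low-Hspa8 libraries, and bars show mean ± SD (n = 4, 4 and 3). For Efnb1, Efnb2, Efnb3 and Ephb2 every MGv point lies above every VPM point, while Ephb1 and Ephb6 overlap in all pairs of nuclei.

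Among the ligands, Efnb3 (ENSMUSG00000003934, GRCm38 chr11:69554092-69560205, minus strand) had the highest level per exon length. All 8 members are annotated as protein coding, and counts are summed over exons. Ephrin-B3 is known as a midline repellent for corticospinal axons. Its level was 184, 212, 175 and 187 CPM in dLG replicates 1 to 4, 152, 132, 103 and 128 CPM in VPM replicates 1 to 4, and 255, 242 and 246 CPM in MGv replicates 1 to 3. The 3 nuclei did not overlap: each MGv library was above each dLG library, and each dLG library above each VPM library. The means were 189 ± 15.8 CPM in dLG (SD, n = 4), 129 ± 19.98 in VPM (n = 4) and 248 ± 6.85 in MGv (n = 3). Efnb3 was 1.92-fold higher in MGv than in VPM (log2 fold change 0.94 ± 0.14, SE, adjusted p = 0.000439 by edgeR). It was also higher in dLG than in VPM (log2 0.56 ± 0.13, edgeR adjusted p = 0.0161) and, close to the threshold, higher in MGv than in dLG (log2 0.39 ± 0.14, edgeR adjusted p = 0.0886).

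Both Efnb3 differences from VPM passed in all 19 alternative fits. Without the low-Hspa8 libraries, the log2 fold change was 0.41 in dLG over VPM (edgeR adjusted p = 0.0271) and -0.84 in VPM over MGv (edgeR adjusted p = 0.000772). The step from dLG to MGv passed in 8 of the 19. Its edgeR adjusted p was 0.0254 without the low-Hspa8 libraries, 0.195 with total counts in place of TMM, 0.237 without the count filter and 0.119 with the replicate number as a block. It was also lost when any 1 of 8 libraries was left out (dLG 1, 3 or 4, VPM 2 or 4, or any MGv library), with adjusted p between 0.109 and 0.209 by edgeR.

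Efnb1 (ENSMUSG00000031217, GRCm38 chrX:99136130-99148991, plus strand) encodes ephrin-B1, which is known for cell sorting in craniofacial development. It lies on the X chromosome, and the labels do not give the sex of the pooled pups. It measured 8.52, 16.1, 13.6 and 7.83 CPM in the dLG libraries, 7.28, 10.4, 7.51 and 6.75 CPM in the VPM libraries and 21.9, 15.0 and 17.2 CPM in the MGv libraries. All 3 MGv libraries were above all 4 VPM libraries, and dLG overlapped both. In dLG the libraries fell apart, with replicates 2 and 3 near the MGv level and replicates 1 and 4 near the VPM level. Efnb1 was 2.25-fold higher in MGv than in VPM (log2 1.17 ± 0.27, SE, edgeR adjusted p = 0.0121), and neither contrast with dLG passed (adjusted p = 0.266 against VPM and 0.159 against MGv). The MGv-over-VPM difference passed in all 19 alternative fits, and without the low-Hspa8 libraries it was smaller (log2 -0.99 in VPM over MGv, edgeR adjusted p = 0.0465). The contrast of dLG with MGv passed in 2 of the 19. Its edgeR adjusted p was 0.0553 without dLG replicate 2 and 0.0737 with thinned counts, but 0.138 without the low-Hspa8 libraries.

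Efnb2 (ENSMUSG00000001300, GRCm38 chr8:8617434-8661242, minus strand) encodes ephrin-B2, known best as a marker of arterial endothelium and also expressed by neurons and progenitors. It had the lowest level per exon length of the ligands and measured 1.89, 2.75, 4.63 and 2.67 CPM in dLG, 1.39, 1.39, 0.558 and 1.19 CPM in VPM, and 5.11, 4.04 and 2.82 CPM in MGv. Every VPM library was below every dLG and MGv library, and dLG and MGv overlapped. The VPM values rest on 9 to 32 counts per library. The fold changes were the largest among the 7 tested members: 3.49-fold in MGv over VPM (log2 1.80 ± 0.42, SE, edgeR adjusted p = 0.0113) and log2 1.38 ± 0.39 in dLG over VPM (edgeR adjusted p = 0.0457). The difference between MGv and dLG did not pass (adjusted p = 0.590 by edgeR, 95% confidence interval of the dLG-over-MGv log2 fold change -1.29 to 0.45).

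The MGv-over-VPM difference of Efnb2 passed in all 19 alternative fits, at an edgeR adjusted p of 0.0671 without the low-Hspa8 libraries. The dLG-over-VPM difference passed in 17. It was lost without dLG replicate 3, the highest dLG library (log2 1.10, edgeR adjusted p = 0.142), and with the replicate block (log2 1.42, edgeR adjusted p = 0.105). The same dLG replicate 3 held the highest summed level of the 5 blood cell markers, 514 CPM against 0.143 to 0.344 CPM in the other 3 dLG libraries, and the part of blood cells in the difference was not tested. The 8 endothelial markers summed to 2.41 to 6.87 CPM in dLG, 4.03 to 6.81 in VPM and 0.389 to 2.40 in MGv, with Cdh5, a defining endothelial cadherin, at 0 counts in all 11 libraries. The genes of this list did not move together: Tek averaged 3.63 CPM in dLG, 1.58 in VPM and 0.0878 in MGv, Kdr 0.0718, 2.10 and 0.706 CPM, and Flt1 0.166, 1.06 and 0.213 CPM. The part of endothelial cells in the Efnb2 differences was not tested.

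Among the receptors, Ephb2 (ENSMUSG00000028664, GRCm38 chr4:136647539-136835988, minus strand) was the only one of the 4 tested that passed in a contrast. EphB2 is known for guidance of commissural axons and for clustering NMDA receptors at synapses. It measured 46.5, 42.7, 36.8 and 52.6 CPM in dLG, 35.0, 34.7, 22.5 and 37.4 CPM in VPM, and 57.0, 57.8 and 71.0 CPM in MGv. Every MGv library was above every dLG and VPM library, while dLG replicate 3 fell just below VPM replicate 4. Ephb2 was 1.91-fold higher in MGv than in VPM (log2 0.93 ± 0.19, SE, edgeR adjusted p = 0.00476). This passed in all 19 alternative fits, with edgeR adjusted p = 0.00856 without the low-Hspa8 libraries and 0.00419 without VPM replicate 3, the lowest VPM library. The dLG mean of 44.7 ± 6.62 CPM (SD, n = 4) lay between 32.4 ± 6.71 in VPM (n = 4) and 61.9 ± 7.82 in MGv (n = 3) and was not separated from either by edgeR (adjusted p = 0.140 and 0.129). Against MGv it did pass without the low-Hspa8 libraries (edgeR adjusted p = 0.0710) and in 4 other alternatives. Against VPM it passed in 1 of the 19, with DESeq2 (log2 0.45 in dLG over VPM, DESeq2 adjusted p = 0.0945).

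Ephb6 (ENSMUSG00000029869, GRCm38 chr6:41605482-41620509, plus strand) encodes a receptor whose kinase domain is catalytically inactive. It measured 24.5, 20.3, 30.5 and 33.2 CPM in dLG, 31.0, 27.8, 13.9 and 27.0 CPM in VPM, and 15.3, 21.6 and 22.1 CPM in MGv. The nuclei overlapped in every pair. Unlike the genes above, its mean was lowest in MGv (19.7 ± 3.76 CPM, SD, n = 3), but no contrast passed, and the 95% confidence interval of the dLG-over-MGv log2 fold change ran from -0.11 to 1.03. In each nucleus the lowest Ephb6 library was the low-Hspa8 one. Without those 3 libraries its log2 fold change was 0.42 in dLG over MGv and 0.37 in VPM over MGv (edgeR adjusted p = 0.149 and 0.199).

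Ephb1 (ENSMUSG00000032537, GRCm38 chr9:101922128-102354693, minus strand) encodes a receptor known for directing the ipsilateral retinal projection at the optic chiasm. It measured 3.65, 7.13, 3.27 and 3.39 CPM in dLG, 6.49, 4.98, 4.96 and 6.14 CPM in VPM, and 6.69, 4.21 and 8.26 CPM in MGv. The nuclei overlapped, and dLG replicate 2 stood above the other 3 dLG libraries. No contrast passed by edgeR. Without dLG replicate 2 the dLG-over-MGv log2 fold change was -0.89 and passed (edgeR adjusted p = 0.0674), the only 1 of 19 alternative fits in which it did. Without all 3 low-Hspa8 libraries, which include that library, it was -0.87 and did not pass (edgeR adjusted p = 0.106). Exons of Ephb1 share 2.17% of their bases with the opposite-strand gene Gm26846, which drew 3 counts in all.

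Ephb3 (ENSMUSG00000005958, GRCm38 chr16:21204755-21223305, plus strand), a receptor that acts with EphB2 in forming forebrain commissures, measured 1.64, 4.68, 1.58 and 2.53 CPM in dLG, 2.595, 1.21, 2.36 and 2.52 CPM in VPM, and 6.01, 3.25 and 2.82 CPM in MGv. Every MGv library was above every VPM library, but the spread within MGv was wide, and the difference did not pass (log2 0.90 ± 0.45 in MGv over VPM, SE, edgeR adjusted p = 0.218). The highest value in dLG and in MGv came from the low-Hspa8 library of that nucleus, and without those libraries the VPM-over-MGv log2 fold change was -0.54 (edgeR adjusted p = 0.482).

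Ephb4 (ENSMUSG00000029710, GRCm38 chr5:137350109-137378669, plus strand), the ephrin-B2 receptor of venous endothelium, was near the floor of detection. It drew 1, 2, 6 and 1 counts in dLG, 10, 4, 0 and 9 in VPM, and 6, 9 and 6 in MGv. A floor of 3 counts corresponds to between 0.129 and 0.292 CPM in these libraries, and the highest Ephb4 value was 0.790 CPM. Its exons share 0.711% of their bases with the opposite-strand gene Zan, which drew 45 counts in all. When all 33170 genes with a count were fitted without the filter, no Ephb4 contrast passed (edgeR adjusted p between 0.283 and 0.648).

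**Figure D2:**
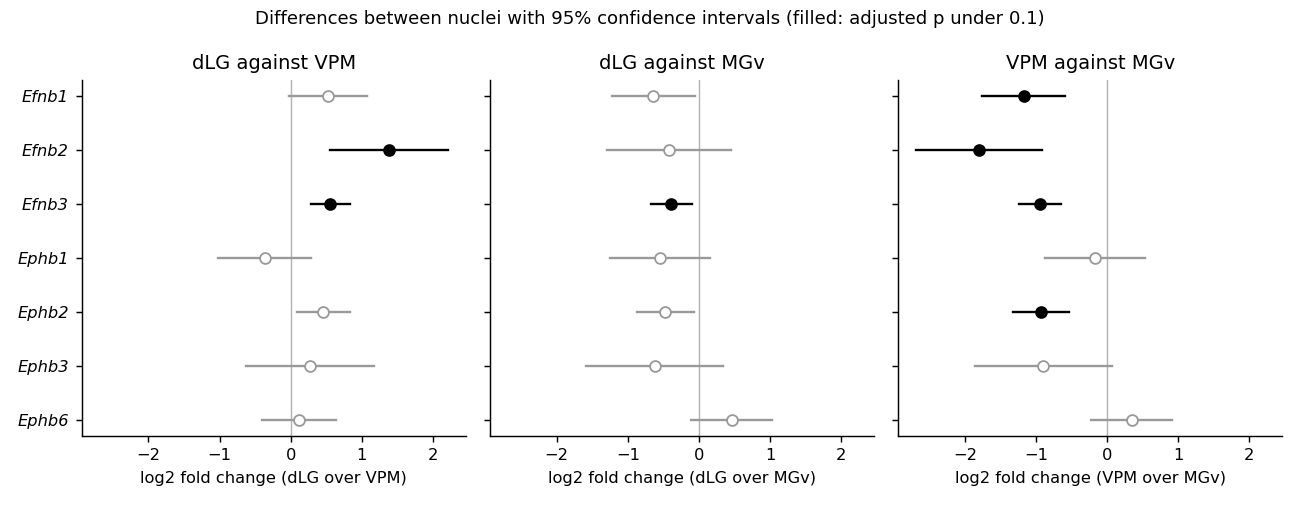
Log2 fold change of the 7 tested members in the 3 contrasts, with 95% confidence intervals, on a common axis. Filled black points passed at an adjusted p under 0.1 and open grey points did not. Against MGv, the filled points of VPM (Efnb1, Efnb2, Efnb3 and Ephb2) lie between -0.93 and -1.80.

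Counted by contrast, 4 of the 7 tested members were higher in MGv than in VPM, beside 8.56% of all genes tested, and 0 were higher in VPM, beside 10.4%. Between dLG and VPM, 2 were higher in dLG (Efnb2 and Efnb3, beside 4.97% of all genes) and 0 higher in VPM (beside 5.74%). Between dLG and MGv, 1 was higher in MGv (Efnb3, beside 7.49%) and 0 higher in dLG (beside 8.61%). In the 3 directions with 0 calls by edgeR, DESeq2 also called 0, and 0 had an unadjusted p under 0.05. All MGv libraries were above all VPM libraries for 5 of the 7 (the 4 called genes and Ephb3), beside 12% of all genes tested. All dLG libraries were above all VPM libraries for 2 (Efnb2 and Efnb3), beside 7.49% of genes, and all MGv libraries above all dLG libraries for 2 (Ephb2 and Efnb3), beside 11.3%. The median log2 fold change of the 7 was 0.46 in dLG over VPM, -0.47 in dLG over MGv and -0.93 in VPM over MGv, where the medians over all genes tested were 0.005, 0.02 and 0.02. The 3 contrasts share libraries and are not independent.

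Genes of the dissociation response, which are induced by handling of live cells as well as by activity, also had their lowest sum in VPM. The 9 listed genes (Fos, Jun and Egr1 among them) summed to 471 to 721 CPM in dLG, 273 to 362 CPM in VPM and 595 to 812 CPM in MGv. Each VPM sum was below every dLG and MGv sum, dLG and MGv overlapped, and all 9 genes passed 1 CPM in at least 1 library. Not every gene followed the sum. Atf3 averaged 0.365 CPM in dLG, 0.693 in VPM and 0.564 in MGv, and Hspa1a 15.5, 13.69 and 13.69 CPM. The part of this response in the Efnb and Ephb2 differences was not tested. Markers of astrocytes and radial glia summed to 84.2 to 176 CPM in dLG, 122 to 187 in VPM and 129 to 237 in MGv, with Slc1a3, a glial glutamate transporter, at a mean of 72.5 CPM in MGv against 6.35 in dLG and 7.15 in VPM. Other genes of the list ran otherwise, with Fabp7 at means of 65.5 CPM in dLG, 64.5 in VPM and 35.4 in MGv, Aldoc at 5.997, 34.5 and 18.1 CPM and Sox9 at 2.32, 2.04 and 0.810 CPM. In the same list Gfap was at most 0.0866 CPM and Aqp4 at most 1.58 CPM. The oligodendrocyte list summed to 13.1 to 30.5, 33.7 to 43.9 and 74.9 to 86.5 CPM, mostly from Mbp, while Sox10 did not exceed 0.0476 CPM. The part of these glial genes in the results was not tested. The lists for microglia, mural cells, GABAergic neurons and cortical neurons each summed to at most 23.9 CPM in any library, cycling progenitors to between 52.1 and 89.1 CPM, and blood cells to at most 11.7 CPM in any library other than dLG replicate 3.

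Levels of different genes were compared per kilobase of exon. Efnb3 stood at 59.5 CPM per kb in dLG, 40.4 in VPM and 77.8 in MGv, and made up 94.1% ± 1.74 (SD, n = 4), 94.2% ± 1.22 (n = 4) and 93.1% ± 1.06 (n = 3) of the summed ephrin-B level. The share of Efnb3 overlapped among the nuclei while the sum did not. That sum ranged from 59.6 to 71.6 CPM per kb in dLG, from 34.7 to 50.0 in VPM and from 80.9 to 87.2 in MGv. Efnb1 followed at 3.34, 2.32 and 5.22 CPM per kb, and Efnb2 at 0.436, 0.165 and 0.582.

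For the receptors the sums overlapped among the nuclei but the shares of the leading genes in MGv lay apart. The receptors summed to 11.8 ± 1.48 CPM per kb in dLG (SD, n = 4), 10.4 ± 2.61 in VPM (n = 4) and 11.8 ± 1.34 in MGv (n = 3). Ephb6 supplied 60.6% ± 7.37 of this in dLG, 62.9% ± 4.75 in VPM and 44.1% ± 5.46 in MGv, and Ephb2 30.2% ± 3.87, 25.1% ± 2.09 and 41.7% ± 1.80. For both genes the MGv shares lay outside the range of the dLG and VPM shares, and dLG and VPM overlapped. Shares of one sum are tied, so the lower Ephb6 share and the higher Ephb2 share in MGv are not separate observations. The Ephb6 level itself passed in no contrast. Ephb6 ranked above Ephb2 on the level per exon length in all 3 nuclei. With the length of the longest coding transcript in place of all exons, however, Ephb2 had the larger share in MGv (42.8% against 39.3%) and Ephb6 in dLG and VPM, so their order in MGv depends on the length used. Ephb1, Ephb3 and Ephb4 followed at no more than 0.912, 0.606 and 0.131 CPM per kb, each with its highest mean in MGv, although none of their contrasts passed.

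**Figure D3:**
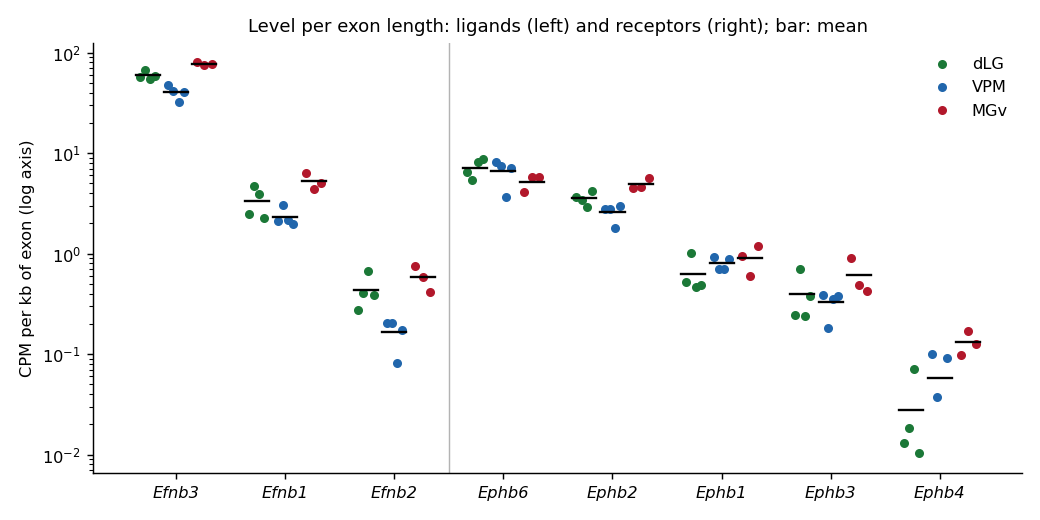
Level per kilobase of exon, on a log axis, for the 3 ligands (left of the line) and the 5 receptors (right), with libraries as points and means as bars. VPM replicate 3 had 0 Ephb4 counts and has no point there. Efnb3 lies above every other member in every library, and Ephb4 spans the bottom of the axis.

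The 49 pathway genes that were followed beside the family act inside the receptor-bearing cell (22 genes), inside the ligand-bearing cell (11), in cleavage (9), as membrane partners (5) or as partners of the other ephrin class (2), and 48 were tested (all but Rhbdl2). Between VPM and MGv, 5 were higher in VPM and 6 in MGv. Between dLG and MGv, 5 were higher in dLG and 6 in MGv, and between dLG and VPM, 3 were higher in dLG and 5 in VPM. Called in either direction were 16.7% of the 48 in dLG against VPM, 22.9% in dLG against MGv and 22.9% in VPM against MGv, where 1704, 2562 and 3016 of the 15907 genes were called. Both directions were present in each contrast. Since the strand setting is not known, the values of Itsn2, Aph1a, Yes1 and Ngef, whose exons share 13.9%, 12.9%, 8.46% and 3.15% of their bases with opposite-strand genes, are less certain.

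In forward signalling, Ngef, an exchange factor known as ephexin that acts downstream of Eph receptors, showed the largest difference. It averaged 4.91 ± 1.26 CPM in dLG (SD, n = 4), 1.67 ± 0.966 in VPM (n = 4) and 19.0 ± 0.303 in MGv (n = 3), and the 3 nuclei did not overlap. It was higher in MGv than in VPM by 3.49 ± 0.37 on the log2 scale (SE, edgeR adjusted p = 3.5e-05), and it took the same order of nuclei as Efnb3. The adaptor Grb10 was higher in dLG than in VPM (log2 0.92 ± 0.17, edgeR adjusted p = 0.00355) and higher in MGv than in VPM (log2 0.87 ± 0.18, edgeR adjusted p = 0.00554). Itsn2, a Cdc42 exchange factor, averaged 35.7 ± 12.2 CPM in MGv (n = 3), above both dLG (14.2 ± 2.35, n = 4) and VPM (14.6 ± 4.23, n = 4), and Tiam1, a Rac exchange factor, was higher in MGv than in dLG.

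Other forward genes ran the other way. The adaptor Nck2 averaged 10.04 ± 0.682 CPM in dLG, 9.35 ± 2.02 in VPM and 4.38 ± 0.635 in MGv, and was lower in MGv than in both (edgeR adjusted p = 0.00353 against dLG and 0.0068 against VPM). The Src family kinase Yes1 was likewise lower in MGv than in both (edgeR adjusted p = 0.0415 against dLG and 0.00777 against VPM). The adaptor Grb2 and the exchange factor Vav2 were highest in VPM, and Vav3 was highest in dLG, at 56.9 ± 18.1 CPM against 27.7 ± 3.09 in VPM and 23.7 ± 6.99 in MGv.

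In reverse signalling, Pdzrn3, a ubiquitin ligase with PDZ domains, averaged 6.65 ± 3.43 CPM in dLG (SD, n = 4), 36.4 ± 2.93 in VPM (n = 4) and 51.6 ± 16.2 in MGv (n = 3). It was higher in VPM than in dLG by 2.45 ± 0.31 on the log2 scale (SE, edgeR adjusted p = 0.000215) and higher in MGv than in dLG by 2.95 ± 0.32 (edgeR adjusted p = 4.62e-05). The transcription factor Stat3 was also lower in dLG than in both other nuclei, while Rgs3, a regulator of G protein signalling, was lower in dLG than in VPM. Of the Grip proteins, which bind the tails of ephrin-B ligands, Grip2 was higher in MGv than in dLG and Grip1 lower. Between VPM and MGv, 0 of the 11 reverse signalling genes passed by edgeR, beside 3016 of all 15907 genes, while 1 (Grip2, higher in MGv) had an unadjusted p under 0.05 and the same gene was called by DESeq2.

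Among the remaining lists, the gamma-secretase subunit Aph1a and the membrane partners Sdc2 (a heparan sulphate proteoglycan) and Ryk (a receptor with an inactive kinase domain) were higher in MGv than in VPM, by 0.77 ± 0.26, 1.23 ± 0.35 and 0.59 ± 0.21 on the log2 scale (SE). Their edgeR adjusted p were 0.0697, 0.0338 and 0.0883. Epha4, the EphA receptor that also binds ephrin-B ligands, ran against the ligands. It averaged 194 ± 37.2 CPM in dLG, 215 ± 45.5 in VPM and 101 ± 7.57 in MGv, lower in MGv than in dLG (log2 fold change 0.95 in dLG over MGv, edgeR adjusted p = 0.00521) and than in VPM (1.10 in VPM over MGv, edgeR adjusted p = 0.00227).

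**Figure D4:**
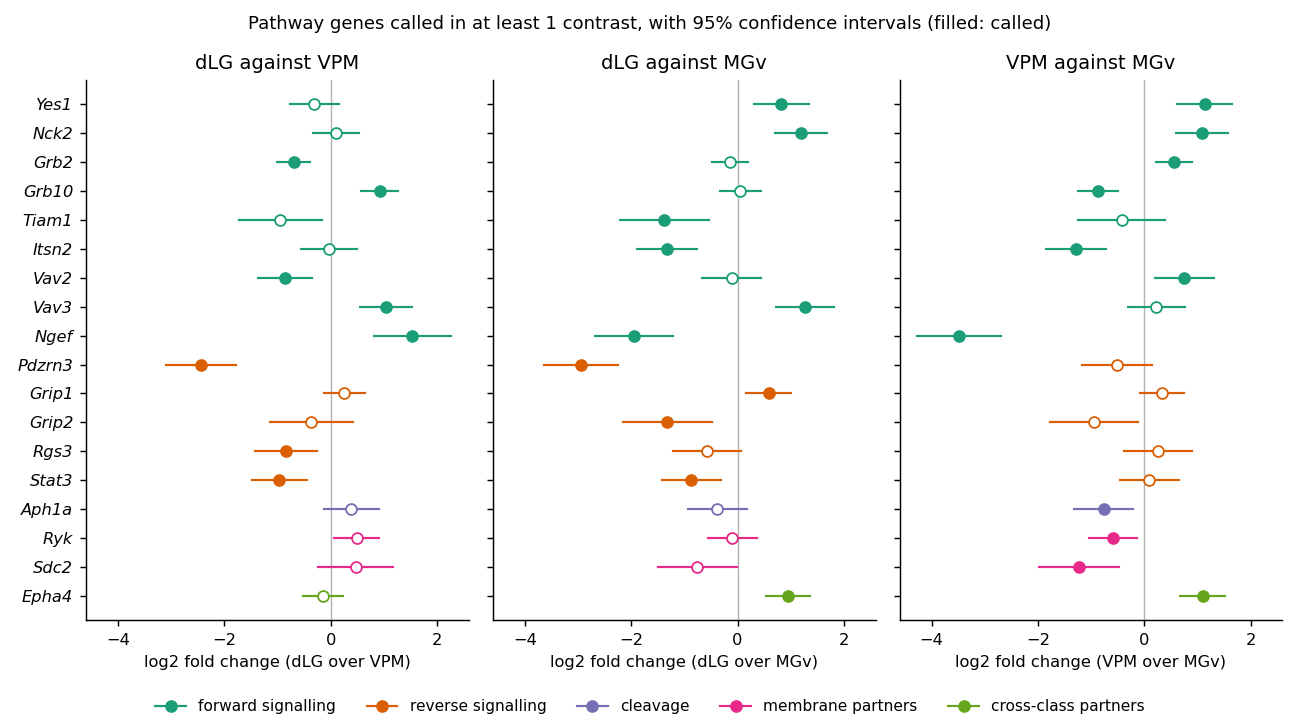
Log2 fold change of the 18 pathway genes that passed in at least 1 contrast, with 95% confidence intervals, coloured by list. Filled points passed at an adjusted p under 0.1. Ngef in VPM against MGv and Pdzrn3 in both dLG contrasts lie farthest from 0, and filled points fall on both sides of 0 in every contrast.

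The genes most like each called member were sought among 8878 genes by the root mean square difference of log2 CPM, centred on the mean of the 11 libraries. For Ephb2 these were Pnmal2 (difference 0.10) and Prrc2c (0.13), where the root mean square of Ephb2 around its own mean was 0.44. For Efnb3 they were Grn (0.12) and Negr1 (0.14) against 0.41. For Efnb1 they were Rgs2 (0.25) and Akap17b (0.27) against 0.56, and for Efnb2 Prkca (0.36) and Mtss1l (0.38) against 0.86. Each of these 8 genes had its lowest mean in VPM and its highest in MGv, a pattern for which the search itself selects.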

How the data were processed

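RNA from sorted neurons was amplified by SMARTer chemistry for low input and sequenced as single reads of 50 bases. The authors deposited raw counts of reads in each gene, made by trimming (Trim Galore 0.6.1, cutadapt 2.3), alignment to mm10 (STAR 2.7.0d) and counting in Ensembl genes (featureCounts, Subread 1.6.4). The strand setting and the treatment of reads with several alignments are not given in the sources used here.

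Counts were fitted with edgeR 4.0.16 (R 4.3.3), using filterByExpr (15907 genes kept), TMM scaling and a quasi-likelihood model with 3 group means over all 11 libraries. Contrasts were two-sided with Benjamini-Hochberg adjustment over all genes tested and a threshold of 0.1, as in the study, which used DESeq2. Standard errors were derived from the log2 fold change and its F statistic, as the size of the former over the root of the latter. The labels do not say that replicates came from separate litters, so p-values measure the spread between these pools. PCR reads without molecular identifiers are not independent molecules, so the floor of 3 counts covers counting error only.

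Alternatives were DESeq2 1.42.0, DESeq2 size factors, total counts, no count filter, the replicate block, omission of the low-Hspa8 libraries, thinning to 10175653 counts, fits of only the nuclei compared, and each library left out in turn. Positions came from GENCODE M21, a later release than that used for counting. Of 54752 identifiers, 54723 had a record there. Named genes were the 8 members, the called pathway genes and, for each called member, the 2 genes of at least 10 CPM with the smallest root mean square difference. 12 marker lists were read as sums. The members and lists were chosen with earlier results of these data known. The models were tested on simulated data.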

Additional observations from a re-analysis of the deposited data

Results flagged for a closer look

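In 2 of the 16 sets of 4 libraries examined (8 genes in dLG and in VPM), 1 library stood far from the others of its nucleus by Dixon's gap ratio, the gap to the nearest library over the whole range (past its 95% critical value). Chance flags about 1 in 20 groups. Ephb1 in dLG replicate 2 was 7.13 CPM against 3.27 to 3.65 CPM in the other 3 dLG libraries (ratio 0.901). This library is one of the 3 with low Hspa8, and without it Ephb1 was lower in dLG than in MGv (log2 fold change -0.89, edgeR adjusted p = 0.0674). Without all 3 of those libraries the difference did not pass (log2 fold change -0.87, edgeR adjusted p = 0.106). Ephb4 in dLG replicate 3 drew 6 counts against 1 or 2 in the other dLG libraries (ratio 0.863), a difference of a few counts near the detection floor.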

How the results depend on the processing

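Of 399 values of the member contrasts under alternatives, 373 kept their direction and their side of the threshold, 13 lost the call, 9 gained it and 4 reversed. All 4 calls of MGv over VPM held in all 19 alternatives. For dLG against MGv (1 member called) the count was 0 with total counts or without the count filter, 2 with DESeq2, with thinned counts, with only the nuclei compared or without the low-Hspa8 libraries, and 0 to 3 when 1 library was left out. For dLG against VPM (2 members called) it was 3 with DESeq2, which added Ephb2, and 1 with the replicate block, which dropped Efnb2. When 1 library was left out it was 1 to 2, the lower value without dLG replicate 3. Over all genes, dLG against VPM gave 2618 calls without the low-Hspa8 libraries (1704 with all) and 1093 to 2223 when 1 library was left out, lowest without VPM replicate 2 and 1101 without VPM replicate 1. Pathway genes called between dLG and VPM numbered 5 with thinned counts (8 in full) and 6 to 11 when 1 library was left out. Between dLG and MGv they numbered 18 without the low-Hspa8 libraries (11 with all) and 7 to 16 when 1 library was left out, lowest without MGv replicate 3. The causes were not tested.

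Reversals touched no call. Ephb3 in dLG over VPM was -0.13 (log2) without the low-Hspa8 libraries and between -0.19 (without dLG replicate 2) and 0.45 when 1 library was left out. Ephb6 in dLG over VPM lay between -0.071 (without VPM replicate 3) and 0.22, and Ephb1 in VPM over MGv between -0.40 and 0.053 (without MGv replicate 3). The labels do not say whether same-numbered libraries share brains. Deviations of the 10 same-numbered pairs correlated at a mean r of 0.016 (-0.20 to 0.48), against -0.0050 for the 30 other pairs. In all, 4 of 11 libraries correlated best with their own number. So few pairs with so wide a range cannot settle whether the numbers pair the samples. With the replicate block, dLG against MGv kept 1 called member, but Ephb2 (edgeR adjusted p = 0.096) in place of Efnb3 (0.119), and VPM against MGv kept 4. Low counts limit what can be said of Ephb4, at 0 to 10 counts per library, and of Efnb2 in VPM, at 9 to 32.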
